A study of Mus musculus with 6 samples.

Results

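Keratins are the intermediate filament proteins of epithelial cells, and this account covers 6 of them that are associated with simple, single-layered epithelia: Krt7, Krt8, Krt18, Krt19, Krt20 and Krt23. They were taken by gene symbol from a table of 52249 mouse genes, and each symbol matched 1 row. The table holds 6 libraries of intestinal organoids, three-dimensional epithelial cultures, made with a QuantSeq 3′ kit that counts the polyadenylated ends of transcripts. Every library carries a knockout of Apc, a tumour suppressor that limits WNT signalling. The first group (3 libraries) has the genotype Apc-knockout and is called Apc-only, for the knockout alone. The second (3 libraries) adds overexpression (OE) of IGF2BP3, an RNA-binding protein, and is called OE. The labels give no promoter or vector for the overexpression, no age or sex of the mice, no gut segment, and do not say whether replicates came from separate mice or cultures, so the p-values measure only the spread between these libraries.

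A keratin filament is built from pairs, each holding 1 acidic type I chain and 1 basic type II chain, and a chain without a partner is degraded. Krt8 (type II) and Krt18 (type I) form the basic pair of simple epithelia, including that of the gut. Krt7 (type II) is typical of ducts and of some glandular linings, Krt19 (type I) of the proliferative crypt region and of ducts, and Krt20 (type I) of mature surface cells of the intestine. Krt23 is a type I keratin whose role is less well described.

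Totals ran from 2180087 to 2519886 counts per library, and the limit that a count of 0 allows (3 counts) lay between 1.18 and 1.41 CPM. CPM here is the depth-normalised count after TMM scaling of library sizes. Since each transcript is counted at its end, levels of different keratins are set side by side without a length correction. How evenly the ends of different keratins are counted was not tested. Igf2bp3 itself had at most 1 count in any library of either group, so the table gave no check of the overexpression label. Apc was counted at 80.4 ± 4.3 CPM in Apc-only and 62 ± 2.37 CPM in OE libraries (SD, n = 3), with a change of -0.37 on the log2 scale (SE 0.12, edgeR's adjusted p = 0.0323), and these counts do not separate mutant from intact transcripts. The biological coefficient of variation was 3.15% among Apc-only and 17.1% among OE libraries. The library names form 1 series per group, so a difference between these series and a difference between the groups cannot be told apart. The epithelial label was matched by the markers: all 7 epithelial markers, Epcam and Cdh1 among them, were above 3 counts, with a summed level of 2231 to 2406 CPM in Apc-only and 1940 to 2440 CPM in OE libraries. Its members did not move together: Cldn7, a claudin of tight junctions, had a log2 change of -1.09 (edgeR's adjusted p = 0.000177), and Cldn3, another claudin, of 0.70 (edgeR's adjusted p = 0.000634). Of 8 fibroblast markers and 4 endothelial markers, 0 exceeded 3 counts in any library.

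The 6 genes lie in the 2 keratin clusters of the mouse genome (GRCm38, GENCODE M21). The type II genes Krt7 (ENSMUSG00000023039, chromosome 15, 101411043 to 101430313, plus strand) and Krt8 (ENSMUSG00000049382, chromosome 15, 101996698 to 102004482, minus strand) share their cluster with the type I gene Krt18 (ENSMUSG00000023043, chromosome 15, 102028180 to 102032027, plus strand). Krt8 and Krt18 point away from each other with 23.7 kb between them. The other type I genes are all on the minus strand of chromosome 11: Krt20 (ENSMUSG00000035775, 99428403 to 99438150), Krt23 (ENSMUSG00000006777, 99477974 to 99493137) and Krt19 (ENSMUSG00000020911, 100140810 to 100148665). Krt20 and Krt23 are 39.8 kb apart. All 6 are protein coding. Krt7 overlaps Gm671 and Krt8 overlaps Gm36026, each on the opposite strand, and the strand setting of the counting is not given in the sources used here. The overlapping genes were counted at 3 to 13 and 1 to 3 reads per library, and the pseudogene Krt8-ps, 98.6% identical to Krt8 over 941 bases, at 0 or 1.

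Stretches just upstream of a transcript start are shown for the 3 genes of chromosome 15, all of which rose, and for Krt20, which had no count at all. They come from the RefSeq table for GRCm38.p6, which held an entry for each member except Krt19, and end before the first base that GENCODE M21 gives to an untranslated region of that gene. The Krt7 stretch lies inside the GENCODE gene model, which starts farther upstream than the RefSeq transcript. Capitals mark matches on either strand to any of 4 motifs. These were GGGCGG, the box bound by Sp and Klf factors, TATAAA, the core promoter box, CTTTGAT, a site of the TCF/LEF factors of WNT signalling, and TGANTCA, the AP-1 site, where N is any base. No marked matches overlap each other.
Krt7, chr15:101412153-101412401, plus strand: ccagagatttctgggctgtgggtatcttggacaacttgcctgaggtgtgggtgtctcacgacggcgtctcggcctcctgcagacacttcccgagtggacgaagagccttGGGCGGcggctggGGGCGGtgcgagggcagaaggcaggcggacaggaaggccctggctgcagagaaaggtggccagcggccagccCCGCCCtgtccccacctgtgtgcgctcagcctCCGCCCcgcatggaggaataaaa
Krt8, chr15:102004483-102004592, minus strand: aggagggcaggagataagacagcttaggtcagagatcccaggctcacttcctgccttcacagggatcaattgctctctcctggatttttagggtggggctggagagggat
Krt18, chr15:102027966-102028179, plus strand: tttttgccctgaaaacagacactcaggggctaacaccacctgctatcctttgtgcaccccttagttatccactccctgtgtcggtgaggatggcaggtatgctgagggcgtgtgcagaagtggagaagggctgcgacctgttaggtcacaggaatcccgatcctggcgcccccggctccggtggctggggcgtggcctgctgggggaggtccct
Krt20, chr11:99438154-99438403, minus strand: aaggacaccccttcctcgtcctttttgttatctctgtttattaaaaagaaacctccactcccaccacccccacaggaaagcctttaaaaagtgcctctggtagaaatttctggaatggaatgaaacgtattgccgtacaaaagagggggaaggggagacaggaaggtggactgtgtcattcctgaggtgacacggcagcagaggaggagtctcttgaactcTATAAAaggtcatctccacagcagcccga

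In the full windows of 300 bases (250 before the RefSeq start and the rest after it), the members with an entry did not share a motif throughout. GGGCGG matched 4 times in Krt7 and in none of the other 4 windows, where 35.6% of 32817 promoter windows hold it. TATAAA matched in Krt20, beginning 29 bases before the start, and in Krt8 at the RefSeq start itself, outside the stretch shown, as 2 matches on opposite strands that overlap each other; 13.6% of all windows hold it. TGANTCA and CTTTGAT, found in 7.81% and 3.73% of all windows, had no match in the 5. A match is a run of letters and not a binding site, and a missing match says only that these letters are not in the window.

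Transcripts of the detected keratins were higher in the OE libraries. Krt7, Krt8, Krt18 and Krt19 rose by 1.56 to 1.89 times, Krt23 was higher by a smaller amount that did not pass the test, and Krt20 was not detected in either group. Thus 4 of the 5 members that could be tested rose and 0 fell (edgeR quasi-likelihood test, Benjamini-Hochberg adjusted p below 0.05 over 10687 genes). Among all tested genes 16.5% rose and 12.7% fell, and among the 698 genes at or above the average log2 CPM of Krt23, the least abundant of the 5, 33.1% rose. In all 5 every OE library was above every Apc-only library, as it was in 25.3% of all tested genes. This last share was not computed for the abundant genes alone. The median log2 fold change was 0.66 for the 5 members and 0.04 for all tested genes. In bulk RNA, more cells of one type and more RNA per cell cannot be told apart.

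**Figure D1:**
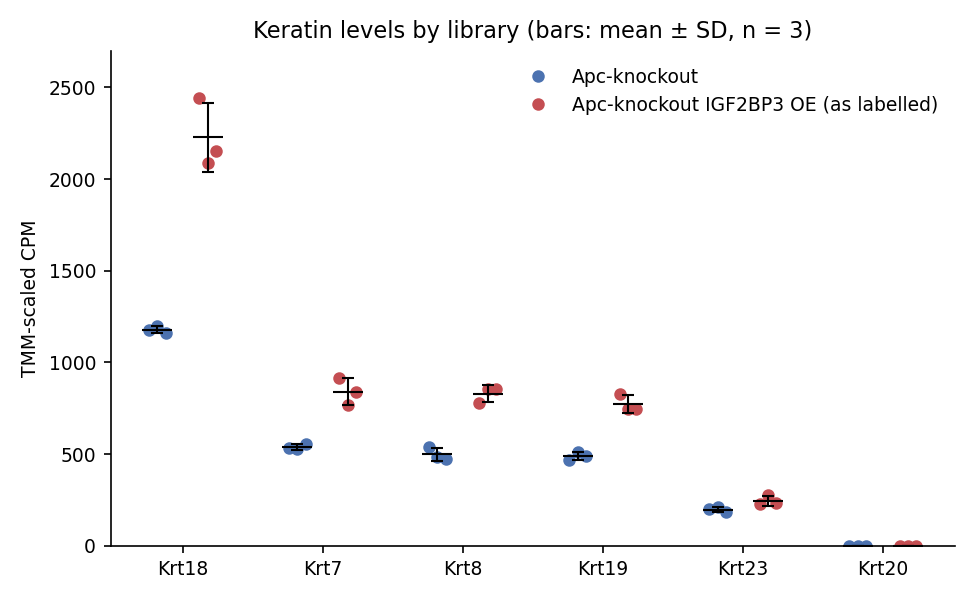
Level of each keratin in TMM-scaled CPM (linear axis from 0) in the 3 Apc-knockout libraries and the 3 libraries labelled Apc-knockout IGF2BP3 OE; points are libraries and black bars the mean ± SD. The groups do not overlap for Krt18, Krt7, Krt8, Krt19 and Krt23, and all 6 values of Krt20 are 0.

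Of the type II chains, Krt8, the main basic keratin of simple epithelia, was counted at 538, 481 and 474 CPM in Apc-only replicates 1 to 3 and at 777, 856 and 854 CPM in OE replicates 1 to 3. The lowest OE library lay well above the highest Apc-only library. The log2 fold change was 0.74 (SE 0.1, edgeR's adjusted p = 0.000324). Krt7, the second type II chain, was counted at 533, 526 and 554 CPM in Apc-only and at 915, 768 and 837 CPM in OE libraries, again without overlap. Its log2 fold change was 0.64 (SE 0.1, edgeR's adjusted p = 0.000664). Krt7 and Krt8 were at similar levels: their ratio was 0.991 to 1.17 in Apc-only libraries and 0.898 to 1.18 in OE libraries, ranges that overlap.

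Of the type I chains, Krt18, the partner of Krt8, was the most abundant keratin in every library and the 40th most abundant of all tested genes. It was counted at 1176, 1201 and 1160 CPM in Apc-only libraries and at 2443, 2089 and 2154 CPM in OE libraries. The Apc-only values were close together, and OE replicate 1 stood above the other two. The log2 fold change of 0.92 (SE 0.09, edgeR's adjusted p = 7.22e-05) was the largest among the members, and 3.58% of the tested genes had a higher one. Krt19, the type I chain of crypt and duct cells, was counted at 469, 510 and 489 CPM in Apc-only and at 828, 744 and 745 CPM in OE libraries. The groups did not overlap, and the log2 fold change was 0.66 (SE 0.1, edgeR's adjusted p = 0.000517).

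Krt23 was the least abundant detected member, at 198, 209 and 182 CPM in Apc-only and 228, 276 and 232 CPM in OE libraries. Every OE library was above every Apc-only library, but by little compared with the other members. The log2 fold change was 0.32 (SE 0.11) and missed the threshold (edgeR's adjusted p = 0.0503); the adjusted p ran from 0.0251 to 0.6 over 20 alternatives, 5 of which passed. Leaving out OE replicate 1 (0.32, adjusted p = 0.0266) or replicate 3 (0.36, adjusted p = 0.0251) brought it past the threshold, and without OE replicate 2 it was 0.20 (adjusted p = 0.244).

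Krt20, the keratin of the mature intestinal surface, had 0 counts in all 6 libraries, which allows a level of up to 1.41 CPM in Apc-only and 1.27 CPM in OE libraries. It did not pass the filter on low counts, and no fold change was computed. Krt23, its neighbour on chromosome 11, was counted between 395 and 701 times per library.

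**Figure D2:**
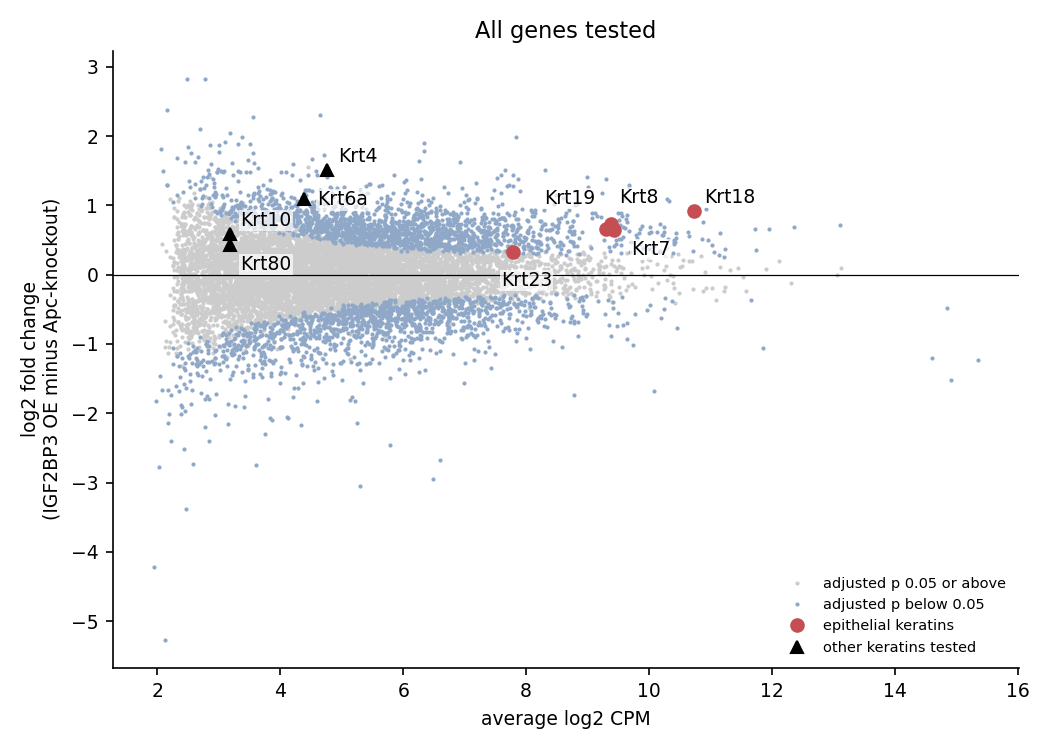
Log2 fold change (OE minus Apc-only) against average log2 CPM for the 10687 tested genes, each a point; epithelial keratins are circles and the other tested keratins triangles. Krt7, Krt8, Krt18 and Krt19 lie at the abundant end and above 0, and Krt4 and Krt6a are less abundant with larger fold changes.

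Fold changes across all tested genes varied with transcript composition and length. The log2 fold change had a Spearman rho of 0.37 with the GC content of the longest transcript and of -0.3 with its length; genes are not independent replicates, and all share the same 6 libraries. The 5 detected keratins have a GC content of 51.4% to 57.6% (median of tested genes 49.7%) and, apart from Krt7 with 4094 bases, transcripts of 1437 to 1958 bases (median 3403). With an offset for GC content in each library the log2 fold changes were 0.67 for Krt18, 0.49 for Krt7, 0.48 for Krt8 and 0.39 for Krt19, and with an offset for length they were 0.67, 0.66, 0.55 and 0.43. All 4 passed in each of the 20 alternatives, DESeq2 among them, with adjusted p of at most 0.0169. For Krt23 the values were 0.20 with the GC offset and 0.09 with the length offset, and neither passed.

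Counts of the 6 keratins together made up 0.284%, 0.286% and 0.28% of the Apc-only libraries and 0.518%, 0.478% and 0.494% of the OE libraries. Their summed level was 2900 ± 36.4 CPM in Apc-only and 4915 ± 243 CPM in OE libraries (SD, n = 3), a ratio of 1.69. Type II chains (Krt7 and Krt8) summed to 1035 ± 33 CPM and 1669 ± 39.2 CPM, and type I chains to 1865 ± 48.8 CPM and 3246 ± 219 CPM (SD, n = 3). The transcripts of the 2 types were thus not counted in equal amounts: the type II to type I ratio was 0.582, 0.524 and 0.561 in Apc-only and 0.484, 0.522 and 0.54 in OE libraries. These ranges overlap. The ratio of the basic pair, Krt18 to Krt8, was 2.18 to 2.5 in Apc-only and 2.44 to 3.14 in OE libraries, and these ranges overlap as well.

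Within the pool the shares of single keratins differed. Krt18 took 40.3% to 41% of the keratin counts in Apc-only libraries and 44.1% to 47.1% in OE libraries. The share of Krt23 was 6.37% to 7.15% in Apc-only and 4.39% to 5.82% in OE libraries, that of Krt7 18% to 19.4% and 16.2% to 17.6%, and that of Krt19 16.1% to 17.4% and 15.4% to 15.9%. None of these 4 pairs of ranges overlap, whereas those of Krt8, 16.4% to 18.5% and 15% to 18.1%, do. How often shares within other sets of genes separate in this way was not tested. Since the shares add up to a whole, they are not independent of each other: a higher share of Krt18 lowers the others. They also carry no offset for length or GC content. The log2 fold changes of Krt7 and Krt18 were 0.66 and 0.67 with the length offset, and 0.49 and 0.67 with the GC offset. Ratios within a library do not depend on the scaling: the Krt23 to Krt18 ratio was 0.168, 0.174 and 0.157 in Apc-only and 0.0934, 0.132 and 0.108 in OE libraries, and the Krt19 to Krt18 ratio was 0.415 ± 0.0139 and 0.347 ± 0.00873 (SD, n = 3). Both were lower in each OE library than in each Apc-only library. The Krt19 to Krt7 ratio was 0.911 ± 0.0511 in Apc-only and 0.921 ± 0.0418 in OE libraries (SD, n = 3).

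**Figure D3:**
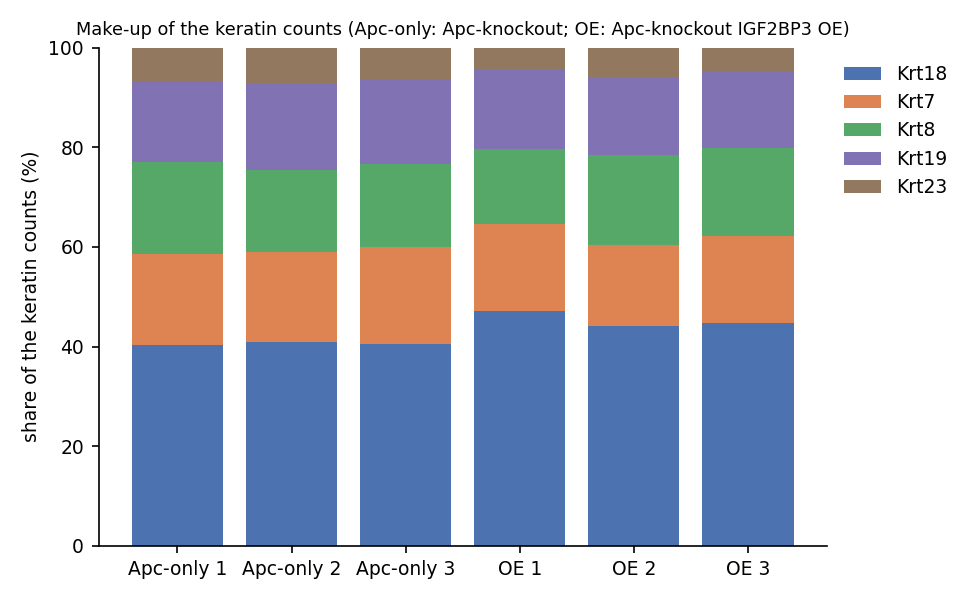
Share of each detected keratin in the summed counts of the 6 keratins (percent, stacked, axis from 0), per library. Krt18 takes 40.3% to 41% in the Apc-only libraries and 44.1% to 47.1% in the OE libraries, and Krt23 the smallest part in all 6.

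Few keratins outside the 6 were detected. Of 48 other keratin genes in the table, 25 had no count in any library, 19 were counted but did not pass the filter, with at most 13 counts in a library, and 4 were tested. Of these 4, 2 rose and 0 fell, with a median log2 fold change of 0.84. Among all tested genes 16.5% rose and 12.7% fell. Krt4, a type II keratin of internal stratified linings such as the oesophagus, had 36, 24 and 27 counts in Apc-only and 110, 72 and 101 counts in OE libraries. It rose by 1.51 on the log2 scale (SE 0.23, edgeR's adjusted p = 0.000634), more than any of the 5 members by its estimate, at 38.5 ± 8.89 CPM in OE libraries (SD, n = 3).

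Krt6a, a type II keratin of wounded and hyperproliferative stratified epithelium, had 29, 22 and 31 counts in Apc-only and 77, 78 and 45 counts in OE libraries. Its log2 fold change was 1.09 (SE 0.24, edgeR's adjusted p = 0.00551), and since Krt6b and 3 other annotated genes are near-identical to it, its counts are uncertain. Krt16, a type I keratin that pairs with Krt6 in wounded skin, was too low to be tested. It had 4, 3 and 4 counts in Apc-only and 11, 13 and 9 in OE libraries. Every OE library was above every Apc-only library, but the share of 25.3% for all tested genes does not cover genes this low. Of the 19 keratins counted but not tested, only Krt16 and Krt79 separated in this way. Krt79 had 1, 2 and 0 counts in Apc-only and 4, 3 and 4 in OE libraries. Krt6b and Krt17, also too low to be tested, had at most 1 count in any library. Krt80 overlaps 2 genes on the opposite strand and shares near-identical sequence with 1 of them, Gm35853. It had a log2 fold change of 0.43 (SE 0.34, edgeR's adjusted p = 0.366). Krt10, a keratin of differentiated epidermis with an overlapping gene on the opposite strand, had one of 0.59 (SE 0.49, edgeR's adjusted p = 0.388). Its counts in OE libraries were 6, 34 and 32, and without OE replicate 1 the log2 fold change was 0.99 (edgeR's adjusted p = 0.0174).

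Most other markers of stratified squamous epithelium were at or near 0. Krt5 had 2 to 5 counts per library, Krt14 at most 3, Krt1, Krt13 and Trp63 at most 1, and Sprr3 none, while Ivl, the cornified envelope protein involucrin, had 6 to 9 counts in Apc-only and 13 to 25 in OE libraries. Of the 9 squamous markers 4 exceeded 3 counts in some library (Krt4, Krt5, Krt10 and Ivl), with a summed level of 23.9 to 28.1 CPM in Apc-only and 49.5 to 69.3 CPM in OE libraries. Msln, listed as a mesothelial marker, was abundant (1010 to 1432 counts), but the other mesothelial markers were at 0 (Wt1) or at most 2 counts (Upk3b). Of 7 immune markers Csf1r and Cd68 exceeded 3 counts, with a summed level for the list of 41.3 to 50.7 CPM in Apc-only and 58.8 to 75.8 CPM in OE libraries, while Ptprc had at most 2 counts and Cd3e, Cd79a, Lyz2 and Adgre1 none. The part of the higher marker sums in the keratin differences was not tested.

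Keratin filaments are tied to desmosomes and to other cytoskeletal systems by linker proteins. All 14 genes listed for this role were tested. Of these, 4 rose, 3 fell and 7 did not pass, with a median log2 fold change of 0.14. The shares over all tested genes were 16.5% rising and 12.7% falling. Fam83h, which organises keratin filaments, rose by 0.87 (SE 0.15, edgeR's adjusted p = 0.00138), and Jup, the plakoglobin of desmosomes and adherens junctions, by 0.57 (SE 0.12, edgeR's adjusted p = 0.00354). Eppk1, a keratin-bundling plakin, rose by 0.66 and Pkp3, a desmosomal plakophilin, by 0.57. Dst, a plakin that links filaments to hemidesmosomes, fell, with 81.1 ± 7.66 CPM in Apc-only and 28.8 ± 5.24 CPM in OE libraries (SD, n = 3) and a log2 value of -1.49 for the change (SE 0.16, edgeR's adjusted p = 9.12e-05). Ppl, the plakin periplakin, fell by 0.47 and Dsg2, a desmosomal cadherin, fell by 0.30.

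Dsp, the desmoplakin that anchors keratins at desmosomes, was at 286 ± 9.35 CPM in Apc-only and 282 ± 23.5 CPM in OE libraries (SD, n = 3), with a log2 fold change of -0.02 (SE 0.1, edgeR's adjusted p = 0.906). Plec, the general cytolinker plectin, also had one of -0.02 (SE 0.12, edgeR's adjusted p = 0.909). With the GC offset 3 of the 4 genes that rose lost their call: Pkp3 (0.26, edgeR's adjusted p = 0.259), Jup (0.29, edgeR's adjusted p = 0.0998) and Eppk1 (0.40, edgeR's adjusted p = 0.0634). That of Ppl was lost without Apc-only replicate 3 (-0.38, edgeR's adjusted p = 0.0817) and with the length offset (-0.33, edgeR's adjusted p = 0.0632). The call of Pkp3 was lost in 6 of 20 alternatives, among them the length offset (0.47, edgeR's adjusted p = 0.0638) and the fits without Apc-only replicate 1 (0.54), Apc-only replicate 2 (0.47) or OE replicate 1 (0.31). The call of Dsg2 was lost in 11, among them the GC offset (-0.26), the length offset (-0.18), each fit without an Apc-only library and those without OE replicate 2 or 3 (-0.34 to -0.28). Dst, Fam83h, Dsp and Dsg2 overlap genes on the opposite strand, and Dst, Eppk1 and Plec overlap genes on their own. Dst, Dsp, Dsg2 and Eppk1 also share near-identical sequence with other annotated genes, and reads of those genes may have entered their counts.

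**Figure D4:**
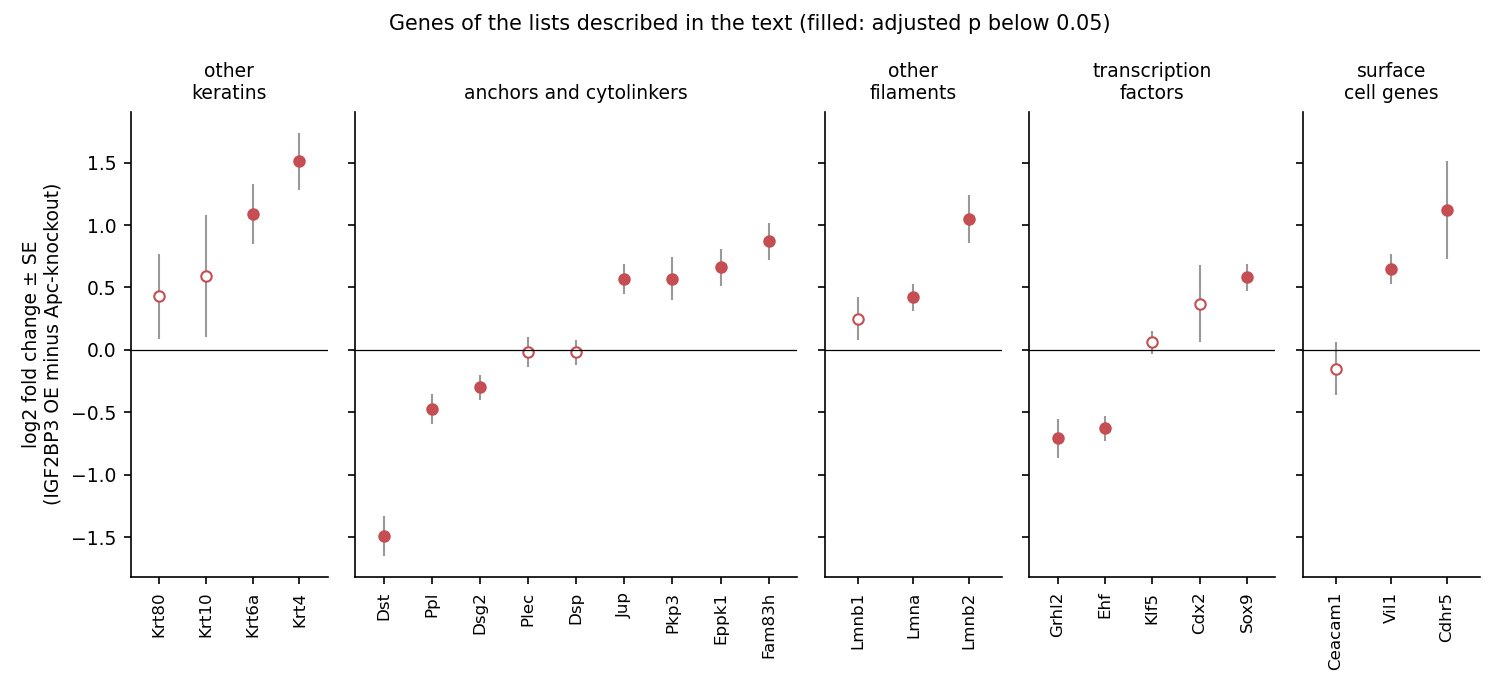
Log2 fold change ± SE (OE minus Apc-only) of the genes described in the text from each of 5 lists, with filled circles for an adjusted p (edgeR) below 0.05. Anchors and cytolinkers lie on both sides of 0, from Dst at -1.49 to Fam83h at 0.87, while the 4 other keratins are all above 0.

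Of 15 other intermediate filament and lamin genes 5 were tested, of which 2 rose and 0 fell (median log2 fold change 0.25). Of all tested genes 16.5% rose and 12.7% fell. Vim, the filament protein of mesenchymal cells, had at most 3 counts in any library. The nuclear lamin genes Lmna and Lmnb2 rose by 0.42 (SE 0.11, edgeR's adjusted p = 0.0113) and 1.05 (SE 0.19, edgeR's adjusted p = 0.00173). Lmnb1, another lamin, had a log2 fold change of 0.25 (SE 0.17, edgeR's adjusted p = 0.298). The call of Lmna was lost without any 1 of the Apc-only libraries (0.41 to 0.43, edgeR's adjusted p = 0.055 to 0.0613) and with the GC offset (0.24). Lmnb2 carries sequence shared with 62 other genes and Lmna with 1 (Ankrd40), so their counts are uncertain.

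Of 15 transcription factors of gut epithelium 11 were tested, of which 2 rose and 2 fell (median 0.25). These counts are near the shares over all tested genes, 16.5% rising and 12.7% falling. Among them Sox9, a factor of crypt progenitor and Paneth cells, rose by 0.58 (SE 0.11, edgeR's adjusted p = 0.00277). Ehf, an epithelial ETS factor, fell by 0.63 (SE 0.1, edgeR's adjusted p = 0.000803) and Grhl2, a regulator of epithelial junction genes, fell by 0.71 (SE 0.16, edgeR's adjusted p = 0.00722). Klf5, a crypt factor at 1181 ± 10.6 CPM in Apc-only and 1235 ± 87.5 CPM in OE libraries (SD, n = 3), had a log2 fold change of 0.06 (SE 0.09, edgeR's adjusted p = 0.628). Grhl2 overlaps 3 genes on the opposite strand and shares near-identical sequence with 1 of them, Gm16136. Cdx2, the intestinal identity factor, was low, with 11 to 36 counts per library.

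Genes of mature absorptive and surface cells, where Krt20 is normally found, were mostly too low to be tested, as Krt20 was. Of 22 such genes 4 passed the filter, and 2 of them rose and 0 fell (median 0.25). Over all tested genes 16.5% rose and 12.7% fell. Vil1, the microvillus protein villin, rose by 0.65 (SE 0.12, edgeR's adjusted p = 0.0022), and it overlaps Usp37 on the opposite strand. Cdhr5, a cadherin of the brush border, had 12, 14 and 4 counts in Apc-only and 24, 34 and 17 counts in OE libraries, a log2 fold change of 1.12 (SE 0.39, edgeR's adjusted p = 0.0483). This call was lost in 12 of 20 alternatives, among them DESeq2's test (1.08, adjusted p = 0.118), each fit without an Apc-only library (0.74 to 1.45) and the one without OE replicate 2 (0.84, edgeR's adjusted p = 0.204). Ceacam1, an epithelial adhesion molecule, had a log2 fold change of -0.15 (SE 0.21, edgeR's adjusted p = 0.634), which became -0.51 without OE replicate 1 (edgeR's adjusted p = 0.0215) and 0.01 without replicate 2. Ceacam1 shares near-identical sequence with Ceacam2 and overlaps a gene on the opposite strand.

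The genes whose log2 CPM followed each keratin most closely over the 6 libraries were picked from 5145 candidates. These had an average log2 CPM of 5 or more, and the members and unnamed gene models were left out. The 6 points fall into 2 groups, so any gene that differs between the groups and varies little within them scores high, and no p is given. For Krt18 they were Hnrnpul1, Pip4k2c and Cox8a (Pearson r of 0.9994 to 0.9997), for Krt19 Pcbd1, Naca and Irf2bp1 (0.9985 to 0.9997), for Krt7 Ucp2 and Arpc1b (0.9986 and 0.9984) and for Krt8 Ube2r2, Babam2 and Rps18 (0.9945 to 0.9979). Their log2 fold changes ran from 0.32 (Rps18) to 1.28 (Ucp2). For Krt23 the closest was Anxa13, a calcium-dependent membrane-binding annexin (r of 0.9902), followed by Mapk1ip1l and Sf3b5. Anxa13 was counted at 221 ± 5.97 CPM in Apc-only and 257 ± 20.6 CPM in OE libraries (SD, n = 3), and like Krt23 its highest library was OE replicate 2. Among the members themselves, pairs of Krt7, Krt8, Krt18 and Krt19 had r of 0.93 or more, and pairs with Krt23 had r of 0.7 to 0.86. Rps18, Naca, Arpc1b, Ucp2, Babam2, Pip4k2c and Mapk1ip1l share near-identical sequence with other annotated genes, so their counts are uncertain.

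**Figure D5:**
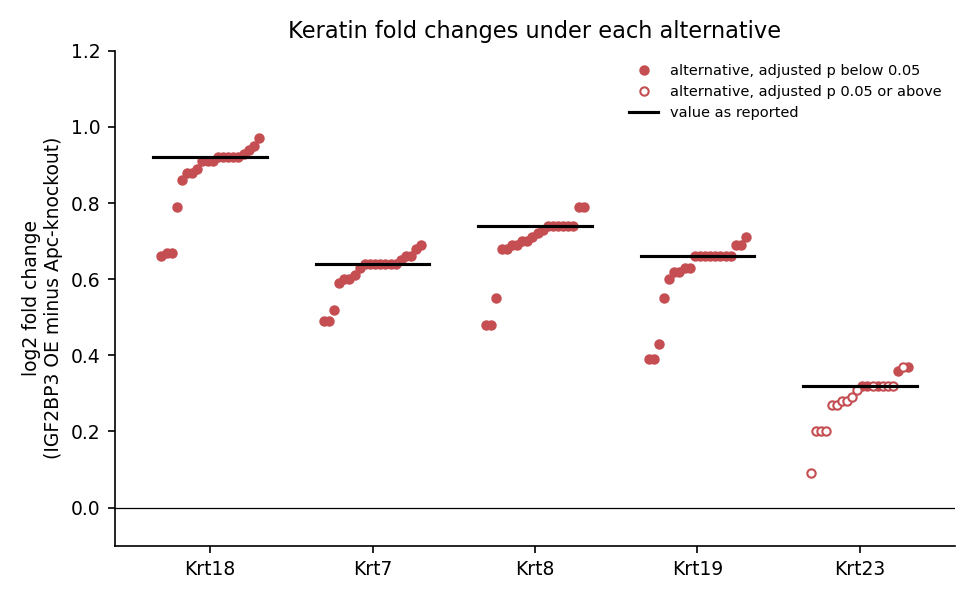
Log2 fold change (OE minus Apc-only) of the 5 tested keratins under each of 20 alternatives, ordered by value, with filled circles for an adjusted p below 0.05 and a black line at the value reported. Every value is above 0; those of Krt18, Krt7, Krt8 and Krt19 are all filled, and those of Krt23 run from 0.09 to 0.37 with 5 filled.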

How the data were processed

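The authors deposited 1 table of unnormalized estimated counts per Ensembl gene, 1 column per library, without pooling. Libraries were made from 500 ng of total RNA with a QuantSeq 3′ forward kit, per the labels' protocols. STAR, HTSeq and the builds mm10 and GRCm38 are named in the submitters' processing notes; annotation, strand setting and the handling of molecular identifiers and multi-mapping reads are not given in the sources used here. Fractional values (3.09% of those above 0, none in the 6 keratins) were rounded. Groups come from sample titles and columns were matched through library names. Positions were looked up by identifier in GENCODE M21 (51903 of 52249 found).

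All genes kept by filterByExpr (10687) were fitted with edgeR 4.0.16 in R 4.3.3 (quasi-likelihood test, TMM, two-sided, no covariates, Benjamini-Hochberg adjustment, threshold 0.05). SE is the log2 fold change divided by the square root of the F statistic. Alternatives used DESeq2 1.42.0, limma-voom (limma 3.58.1), other scalings and filters, thinning to equal depth, a replicate block, a fit without mitochondrial genes and fits leaving out each library. GC and length offsets (loess, span 0.5), group weights and unrounded counts were added after seeing the data. Scripts were tested on data simulated with equal spread in both groups, so the unequal spread of these libraries was not covered. Counts are not deduplicated molecules as far as stated, so floors cover counting error only. Near-identical means at least 95% identity over at least 100 bases.

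The members and the lists were chosen with earlier results of these data known. Named are the members, Igf2bp3 and Apc, the tested other keratins and the 3 genes most like each member. Also named are the up to 3 tested genes of each list with the smallest p. Other list genes past the threshold, Krt6b, Krt16, Krt17, Krt79, Klf5, Dsp, Plec, Vim, Cdx2 and markers were chosen after their values were seen. Some genes that this rule selected are not reported here.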

Additional observations from a re-analysis of the deposited data

How the results depend on the processing

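The log2 fold changes of Krt7 (0.49 to 0.69), Krt8 (0.48 to 0.79), Krt18 (0.66 to 0.97) and Krt19 (0.39 to 0.71) were above 0 and past the threshold in all 20 alternatives. Krt23 stayed above 0 in all of them (0.09 to 0.37) and passed with library totals (0.37), with the replicate number as a block (0.32), with group weights in limma-voom (0.32) and without OE replicate 1 or 3; leaving out single libraries gave 0.20 to 0.37. The number of genes past the threshold was 3118, 1578 at an adjusted p below 0.01, 3112 with the replicate block and 1748 to 3532 when single libraries were left out, with the 3 lowest counts from the fits without a Apc-only library. Equal replicate numbers are not shown to pair the libraries: their deviations from the group means correlated at 0.1, 0.02 and 0.07, and Apc-only replicate 2 correlated best with OE replicate 3 (0.04). The median log2 fold change of all tested genes was 0.04, and 0.09 with library totals. Of 420 values for 21 list genes outside the members, 377 kept direction and call, 40 lost the call, 2 gained it and 1, that of Ceacam1 (0.01 without OE replicate 2, in a range from -0.51), changed sign. Depth limits what can be said of Krt20 and of the 19 other keratins with too few counts to be tested.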
